A study of Hordeum vulgare with 12 samples.

Results

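The effect of drought described here is the mean of the drought effects in 2 barley accessions, BCS8 and BCS24, measured by RNA sequencing of leaf tissue. It rests on all 12 libraries of the series, 6 under drought and 6 controls. Each accession gave 3 control and 3 drought libraries, and the difference between drought and control was taken within each accession before the mean was formed, so that a constant difference between the accessions did not enter it. Of the 30157 genes in the deposited table, 17342 reached at least 1 FPKM (fragments scaled by gene length and library size) in at least 3 of the 12 libraries and were tested. The labels give no transgene or mutation, and treatment is named only as ck, read here as control, or drought. The severity and length of the drought, the age of the plants and whether libraries came from separate plants could not be read from the labels, so p-values measure the spread between these libraries, which may be technical in part. The study's title places the plants at the seedling stage.

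Plants that run short of water make abscisic acid (ABA), and the cleavage of carotenoids by 9-cis-epoxycarotenoid dioxygenase (NCED) is regarded as the limiting step of its synthesis. In the core pathway known from Arabidopsis, ABA bound to PYR/PYL receptors inhibits protein phosphatases of type 2C (PP2C), which frees SnRK2 kinases to phosphorylate ABF transcription factors of the bZIP family. In leaves this pathway closes stomata and turns on genes for compatible solutes and protective proteins, while cytochrome P450 enzymes of the ABA 8'-hydroxylase type break the hormone down again.

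Libraries held 49553836 to 61212440 counts, and the within-group correlations of log2 expression ran from 0.919 to 0.982 (Pearson, across genes, which are not independent replicates). Light-harvesting chlorophyll-binding genes, which mark green leaf, were among the most abundant, with HORVU2Hr1G036960 at a mean of 1357 FPKM in control and 1975 FPKM under drought. On principal component 2, which carried 13.7% of the variance, 3 libraries lay apart from their groups: BCS8 drought 3 (−69.72, where drought 1 and 2 of BCS8 had 9.029 and 26.13), BCS24 control 1 (3.183, where controls 2 and 3 of BCS24 had 53.98 and 58.7) and BCS8 control 2 (−28.3, where controls 1 and 3 of BCS8 had 20.49 and 30.38). Many counts that rest on them are also given without the first 2, or without all 3. The rRNA share of counts went up by 0.875 percentage points in BCS8 and changed by −0.865 in BCS24, and its mean drought effect was 0.00462 percentage points (exact permutation test within accessions, 2-sided p = 0.985, 400 arrangements). Because leaf tissue was measured in bulk, fewer cells of a type and less RNA per cell cannot be told apart in any value below.

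Drought changed 1191 of the 17342 genes at an adjusted p under 0.05 (6.87%; edgeR quasi-likelihood test with Benjamini-Hochberg adjustment over all genes tested, 6 libraries against 6), 693 of them upward (4.0%) and 498 downward (2.87%). Among called genes rises were larger than falls, and the balance of calls differed by level. In the lowest of 4 bins by mean FPKM 163 genes rose and 63 fell, and in the highest 191 and 177. Whether level bears on the sizes was not tested. The median log2 fold change was 0.89 among the genes that rose and −0.64 among those that fell, and 310 of the rises (1.79% of all genes tested) but 128 of the falls (0.738%) were at least 2-fold, 438 in all (2.53%). Over all tested genes the median was 0.01, and 8877 of them (51.2%) had a positive value. In 503 genes (2.90%) every drought library lay above every control library of the same accession in both accessions, and in 480 (2.77%) every one lay below. Of these, 399 and 333 were also called by the test. Upward changes made up 58.2% of the calls, a split that was 57.4% with the size factors of DESeq2 in edgeR and 48.4% with upper-quartile scaling. It was 33.1% in a limma model of log2(FPKM + 1), which differs in test, unit and scaling at once and in which the median over all genes tested was −0.06. With a pseudocount of 0.1 the share was 33.8% and the median −0.08. Without BCS8 drought 3 and BCS24 control 1 the count was 842, made of 420 rises and 422 falls, and without BCS8 control 2 as well it was 972 (531 and 441). Leaving out BCS24 control 3, BCS8 control 1, BCS24 control 2 or BCS24 drought 1 alone gave 514, 529, 549 and 746 calls, and without BCS8 control 3 the test called 331 falls.

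Of the 8 tested genes annotated to ABA synthesis, 4 rose and none fell (50.0%, against 4.0% of all genes that rose). All 8 had a positive value and the median log2 fold change was 2.11, while under upper-quartile scaling and in the limma model 6 were positive, and the limma median was 1.03. The 4 that rose were all NCED genes, out of 6 tested NCED genes in the deposited orthology. The groups by orthology number, here and below, were added after the values were seen. These 4 calls held in each of the 25 alternative settings, among them the omission of every library in turn. HORVU5Hr1G008050 (chromosome 5H, 18037869 to 18039692, reverse strand; the deposited table's coordinates, with the build not given in the sources used here) stood at 0.81, 1.09 and 0.797 CPM in the control libraries of BCS8 and 28.2, 8.77 and 17.7 under drought, and 0.25, 0.577 and 0.435 and 1.2, 2.34 and 2.3 in BCS24 (CPM, counts scaled to library size; replicates 1, 2 and 3 in this order throughout). Every drought library lay above every control library of its accession, and the lowest drought library of BCS24 lay just above the highest control of BCS8. The mean change was 3.27 ± 0.34 on the log2 scale (± SE, n = 6 against 6, edgeR adjusted p = 0.00155), made up of 4.34 ± 0.49 in BCS8 and 2.21 ± 0.47 in BCS24.

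HORVU5Hr1G092850, a further NCED gene on chromosome 5H (589662189 to 589664852, forward strand), stood at 1.39, 4.57 and 0.85 CPM in the control libraries of BCS8 and 45.3, 14.5 and 36.3 under drought, and 0.568, 0.793 and 1.15 and 5.97, 21.9 and 6.5 in BCS24. It rose by 3.79 ± 0.55 (edgeR adjusted p = 0.00499), to a similar extent in both accessions. HORVU5Hr1G054970 (3.64 ± 0.54) and HORVU5Hr1G044510 (3.53 ± 0.51) followed it so closely from library to library (r of at least 0.98) that reads shared among the 3 genes cannot be told apart from separate expression. The other 2 NCED genes did not pass. HORVU3Hr1G108100 stood at 73.6, 96.3 and 136 CPM in the control libraries of BCS8 and 413, 668 and 36.7 under drought, and 2.99, 4.2 and 5.48 and 3.39, 8.2 and 1.14 in BCS24, so that BCS8 drought 3 lay below its controls while the other drought libraries of BCS8 lay far above them (mean change 0.94 ± 0.61, edgeR adjusted p = 0.386). HORVU6Hr1G068720, by far the most abundant gene with this orthology number at 438 FPKM in control, gave −0.63 ± 0.20 (edgeR adjusted p = 0.0948), and DESeq2 called it lower.

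Of 3 tested genes of the ABA 8'-hydroxylase orthology, which degrades ABA, HORVU6Hr1G068690 and HORVU0Hr1G016780 rose by 1.10 ± 0.28 and 1.09 ± 0.28 (edgeR adjusted p = 0.0443 and 0.0441). The list fixed at the outset for ABA breakdown held no gene. The 2 risers followed each other closely enough to share reads. Neither rise was past the threshold without BCS8 drought 3 and BCS24 control 1, under upper-quartile scaling or in the limma model, nor in 9 of the 12 fits that left out 1 library (BCS8 control 1, BCS8 control 2, BCS8 control 3, BCS8 drought 1, BCS24 control 1, BCS24 control 2, BCS24 control 3, BCS24 drought 1 or BCS24 drought 3), where the adjusted p of HORVU6Hr1G068690 reached 0.103.

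Of 7 tested ABA receptor genes with the PYL orthology number, 4 fell (57.1%, against 2.87% of all genes), none rose and the median was −0.40. Of the wider list of 19 genes annotated to binding ABA, 5 fell and HORVU1Hr1G044780, which carries no PYL orthology number, rose (1.25, edgeR adjusted p = 0.0257). The list held no rise without BCS8 control 3, BCS8 drought 2, BCS24 control 3 or BCS24 drought 2, nor without BCS8 drought 3 and BCS24 control 1, and 2 rises without BCS24 drought 3. HORVU4Hr1G055220 (chromosome 4H, 463075858 to 463077315, forward strand) stood at 6.21, 3.86 and 8.96 CPM in the control libraries of BCS8 and 1.03, 1.2 and 0.614 under drought, and 19.4, 22.4 and 21.9 and 1.73, 1.29 and 4.6 in BCS24. Control and drought libraries lay well apart in each accession, and the drought level was low in both although the control level of BCS24 was higher. The gene fell by 2.90 ± 0.35 on the log2 scale (edgeR adjusted p = 0.00272). HORVU1Hr1G050110 stood at 15.2, 14.7 and 15.2 CPM in the control libraries of BCS8 and 8.93, 6.7 and 9.47 under drought, and 17.7, 16.2 and 16.8 and 8.15, 8.42 and 12.8 in BCS24, again without overlap. It changed by −0.82 ± 0.13 (edgeR adjusted p = 0.00815). HORVU2Hr1G014670 (−0.91 ± 0.18) and HORVU1Hr1G030390 (−0.31 ± 0.07) were the others with the PYL orthology number. The list of 19 lost 2 of its 5 falls without BCS8 control 1, BCS24 control 3 or BCS24 drought 3.

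By orthology 11 PP2C genes were tested, whose products these receptors inhibit. Of them 6 rose (54.5%, against 4.0% of all genes), none fell and the median was 1.03. The number of rises was 4 without BCS8 drought 3 and BCS24 control 1, and 6 without BCS8 control 2 as well. The PP2C list fixed at the outset, by terms and descriptions, held 2 tested genes, of which neither passed. HORVU4Hr1G060370 (chromosome 4H, 507379979 to 507384518, reverse strand) stood at 11.7, 23.8 and 13.1 CPM in the control libraries of BCS8 and 213, 165 and 211 under drought, and 4.39, 6.94 and 5.22 and 40.8, 92.7 and 26.7 in BCS24. Its lowest drought library was BCS24 drought 3, still above the highest control of either accession. The rise of 3.44 ± 0.32 had an edgeR adjusted p of 0.00141 and was of like size in BCS8 (3.60) and BCS24 (3.27). HORVU3Hr1G085930 (chromosome 3H, 614881013 to 614883250, forward strand) stood at 44.1, 71.1 and 25.4 CPM in the control libraries of BCS8 and 169, 141 and 154 under drought, and 30.7, 23.6 and 28.1 and 94.2, 125 and 107 in BCS24. The gene rose by 1.85 ± 0.21 (edgeR adjusted p = 0.00218). The others were HORVU3Hr1G059170 (2.02 ± 0.28), HORVU3Hr1G067380 (1.66 ± 0.29), HORVU1Hr1G080290 (1.28 ± 0.26) and HORVU3Hr1G050340 (1.01 ± 0.22). Of these 6, HORVU3Hr1G050340 lost its call in 6 of the 12 fits that left out 1 library (BCS8 control 1, BCS24 control 1, BCS24 control 2, BCS24 control 3, BCS24 drought 1 or BCS24 drought 2, highest adjusted p 0.0728), and HORVU1Hr1G080290 without BCS8 control 1 or BCS24 control 3 (highest adjusted p 0.0596).

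Of 13 tested SnRK2 kinase genes 3 rose (23.1%, against 4.0% of all genes) and none fell (median 0.14). Of 14 tested genes of the ABF orthology 2 rose (14.3%) and none fell (median 0.16). The SnRK list fixed at the outset held 1 tested gene, which did not pass. Without BCS8 drought 3 and BCS24 control 1 the SnRK2 and ABF counts were 2 and 1. They were 1 and 3 without all 3 libraries that lay apart. The SnRK2 gene HORVU2Hr1G029900 stood at 54.0, 43.5 and 77.8 CPM in the control libraries of BCS8 and 133, 129 and 154 under drought, and 58.1, 55.1 and 59.8 and 85.2, 142 and 69.8 in BCS24. Its level rose by 1.01 ± 0.18 (edgeR adjusted p = 0.0128, and 0.0621 without those 3 libraries). The rises of HORVU1Hr1G055340 (1.20 ± 0.29) and HORVU1Hr1G074670 (1.15 ± 0.28) were less firm, and the SnRK2 count was 1 without BCS8 control 1, BCS8 control 3, BCS8 drought 1, BCS24 control 1, BCS24 control 2, BCS24 control 3, BCS24 drought 1 or BCS24 drought 2. Among the ABF genes, HORVU3Hr1G083250, described as an abiotic stress bZIP factor, stood at 4.57, 7.74 and 5.67 CPM in the control libraries of BCS8 and 13.7, 11.6 and 26.8 under drought, and 1.25, 0.884 and 0.652 and 2.58, 2.86 and 3.69 in BCS24. Drought and control libraries did not overlap in either accession, and the gene rose by 1.62 ± 0.26 (edgeR adjusted p = 0.0071). HORVU6Hr1G080670 rose by 1.25 ± 0.24.

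**Figure D1:**
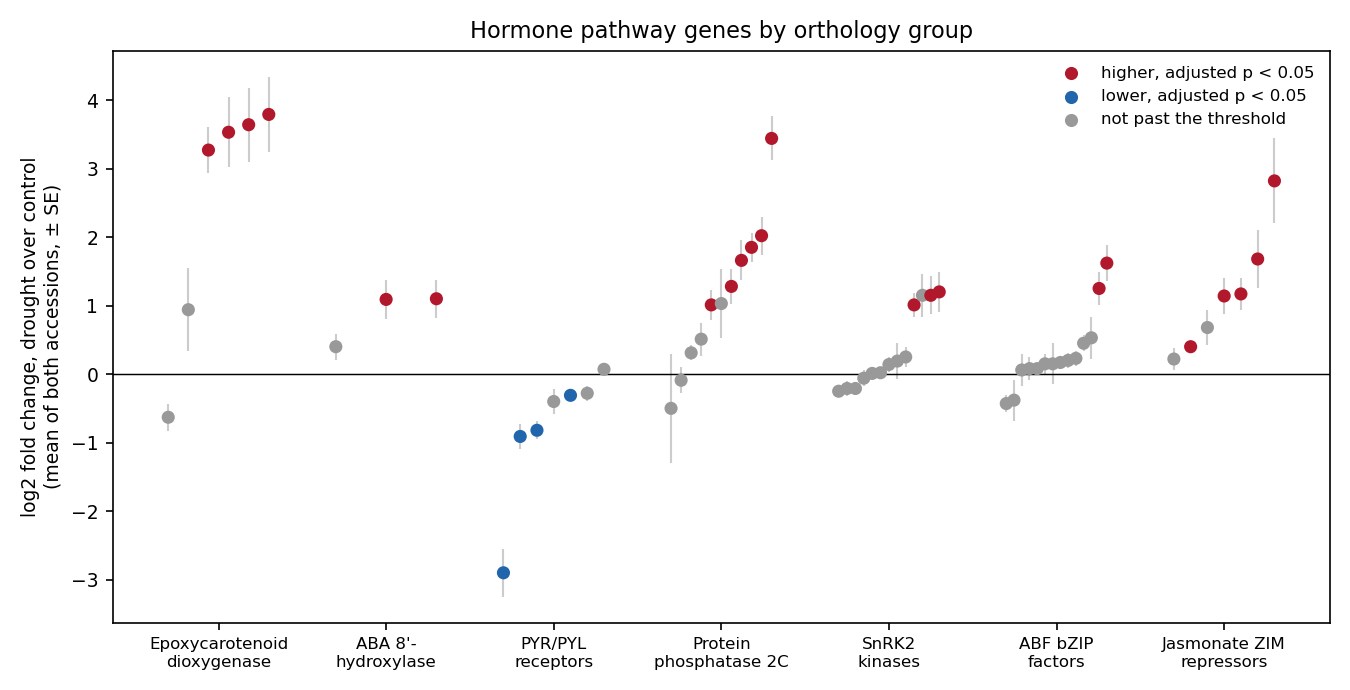
Mean log2 fold change under drought over both accessions (vertical axis, bars ± SE) of every tested gene in 7 orthology groups of ABA and jasmonate signalling, 1 point per gene ordered by value. Red points rose and blue points fell at an edgeR adjusted p under 0.05, and grey points did not pass. The NCED, PP2C and JAZ points that passed lie above 0 and the PYR/PYL points that passed below. The groups were added after the values were seen.

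**Figure D2:**
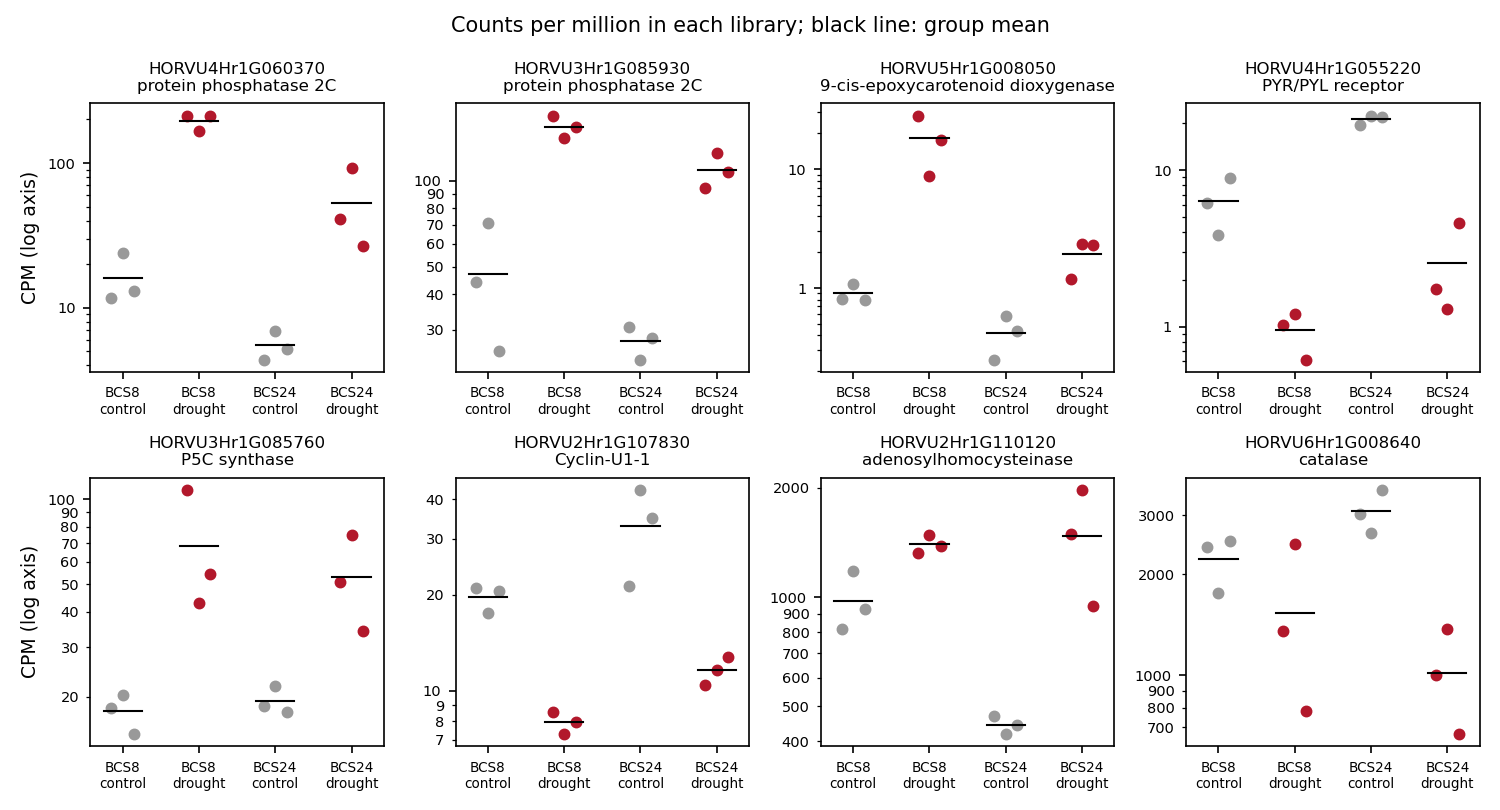
Expression in CPM on a log axis of 8 genes named in the text, 1 point per library, with grey control and red drought points in separate columns for BCS8 and BCS24 and a black line at the group mean. PP2C, NCED, P5CS and adenosylhomocysteinase genes lie higher under drought in both accessions and the PYL receptor and Cyclin-U1-1 lower, while the catalase gene overlaps in BCS8.

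A wider list held 419 tested genes annotated to ABA signalling or the response to ABA. Genes of the core pathway that carry these terms were not removed from it. Of the 419, 43 rose and 13 fell (10.3% and 3.1% of the list, against 4.0% and 2.87% of all genes tested). Their median was 0.05 against 0.01 for all genes, and 10.3% of the list passed upward. In the limma model of log2(FPKM + 1) the counts were 36 and 28, and without BCS8 drought 3 and BCS24 control 1 they were 30 and 17 (39 and 13 without BCS8 control 2 as well). The number of rises was 24 without BCS24 control 3, 26 without BCS8 control 1 and 28 without BCS24 control 2, and falls numbered 8 without BCS24 control 3. Of the 199 genes annotated to water deprivation 28 rose and 8 fell (14.1% and 4.02%, median 0.08). The counts were 23 and 18 in the limma model. They were 21 and 9 without BCS8 drought 3 and BCS24 control 1 (23 and 5 without all 3). Rises numbered 18 without BCS24 control 2, BCS24 control 3 or BCS24 drought 1, and falls 3 without BCS8 control 1 or BCS8 control 3, 4 without BCS8 drought 2, BCS24 control 2, BCS24 control 3 or BCS24 drought 1 and 5 without BCS8 drought 1. These lists overlap, and many of the called genes stand in both.

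Among the lists of transcription factor families, bZIP factors gave 2 rises among 5 tested genes and CBF and DREB factors 1 among 4. Heat stress factors gave 1 among 4 and homeobox-leucine zipper factors 1 among 2, and none of these lists held a fall. The CBF and DREB gene that rose was CBF14, whose call was lost in most fits that left out 1 library, as given below. The highest value of that list was 1.17, so it did not hold HORVU0Hr1G016540, described as CRT/DRE binding factor 1. HORVU0Hr1G016540 also rose and is given with the cold-response genes. None of 4 NAC genes passed, where 4.0% of all genes rose and 2.87% fell. Of 5 WRKY genes none rose and 1 fell, and the number of falls was 0 without BCS8 control 1, BCS8 control 2, BCS8 control 3, BCS8 drought 1, BCS24 control 2, BCS24 control 3, BCS24 drought 1 or BCS24 drought 3, and 2 in the limma model and by DESeq2. The homeobox-leucine zipper gene HORVU2Hr1G092710, described as similar to HOX22 and annotated to ABA and water deprivation, stood at 11.1, 20.3 and 4.53 CPM in the control libraries of BCS8 and 113, 64.8 and 70.7 under drought, and 3.32, 7.41 and 6.21 and 21.8, 36.6 and 19.9 in BCS24. It rose by 2.50 ± 0.36 (edgeR adjusted p = 0.00521). The gene was among the 12 largest described rises, whose rule required no overlap in either accession. HORVU7Hr1G041810, annotated as a DNA-binding transcription factor in the ABA list, stood at 0.733, 1.57 and 0.142 CPM in the control libraries of BCS8 and 9.75, 9.51 and 18.0 under drought, and 0.384, 0.289 and 0.277 and 5.34, 3.19 and 4.76 in BCS24. Its rise of 3.86 ± 0.47 (edgeR adjusted p = 0.00283) was nearly equal in the 2 accessions, and it was named after its values were seen.

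The annexin HORVU7Hr1G037080, of a family of calcium-dependent membrane-binding proteins, rose by 1.38 ± 0.22, and a mitogen-activated protein kinase gene, HORVU7Hr1G095810, by 1.78 ± 0.36. The call of the kinase gene was lost without BCS8 control 1 or BCS24 control 3 (highest adjusted p 0.0567). A pair of genes with only cold acclimation, water deprivation and ABA terms were among those nearest to silent in control. HORVU5Hr1G103460 stood at 0.174, 0.744 and 0.195 CPM in the control libraries of BCS8 and 46.5, 2.34 and 27.3 under drought, and 0, 0 and 0.0593 and 1.45, 0.772 and 1.5 in BCS24. This gene rose by 5.99 ± 0.87 (edgeR adjusted p = 0.00513), although its controls in BCS24 held 3 counts in all, so that the size of the fold rests on very few reads. HORVU6Hr1G083960 held no counts in the controls of BCS24 and 647 under drought, while in BCS8 the groups overlapped (edgeR adjusted p = 0.0139 for the mean).

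Cold-response terms covered 229 tested genes, with 24 rises and 9 falls (10.5% and 3.93%, against 4.0% and 2.87% of all genes; median 0.09). The count of rises was 15 without BCS8 drought 3 and BCS24 control 1, 22 without BCS8 control 2 as well, and 7 without BCS8 control 1, BCS24 control 2 or BCS24 control 3, 12 without BCS24 drought 1 and 13 without BCS24 drought 2. In the limma model 19 rose and 17 fell. Falls numbered 4 without BCS8 control 1 or BCS8 control 3 and 5 without BCS8 drought 2 or BCS24 control 2. The member with the smallest p was HORVU0Hr1G016540, described as CRT/DRE binding factor 1, a CBF transcription factor of the cold and drought response, which lies on unplaced sequence. It stood at 0.906, 0.57 and 0.585 CPM in the control libraries of BCS8 and 2.45, 2.63 and 5.89 under drought, and 0, 0.018 and 0 and 2.79, 2.97 and 0.923 in BCS24. The controls of BCS24 held 1 count in all and its drought libraries 353, so no fold is given there. In BCS8 the change was 2.41 ± 0.55 on the log2 scale, and the test of the mean effect gave an edgeR adjusted p of 0.00141. A serine O-acetyltransferase gene of cysteine synthesis, HORVU4Hr1G071040, changed by −1.48 ± 0.15. The lowest value in the list, whether called or not, was −1.59. CBF14, HORVU5Hr1G080350, rose by 1.17 ± 0.30, a call lost without BCS8 control 1, BCS8 control 3, BCS8 drought 1, BCS8 drought 2, BCS8 drought 3, BCS24 control 2, BCS24 control 3, BCS24 drought 1 or BCS24 drought 3 (highest adjusted p 0.111).

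Heat-response terms covered 122 tested genes, of which 8 rose and 1 fell (6.56% and 0.82%, against 4.0% and 2.87% of all genes; median 0.09), with 7 and 4 when BCS8 drought 3 and BCS24 control 1 were both omitted and 8 and 5 in the limma model, and 8 and 3 without all 3 libraries that lay apart. Rises numbered 5 without BCS8 control 1 or BCS24 control 2, and falls 0 without BCS8 control 1, BCS8 control 3, BCS8 drought 2, BCS24 control 2, BCS24 control 3, BCS24 drought 1 or BCS24 drought 3, 2 without BCS24 drought 2, 3 without BCS24 control 1 and 4 without BCS8 drought 3. The risers included the HSP70 gene HORVU4Hr1G059260 (1.49 ± 0.26, not past the threshold without those 3 libraries) and the small heat shock protein gene HORVU3Hr1G020390 (1.98 ± 0.31). The ABA-pathway phosphatases HORVU3Hr1G059170 and HORVU3Hr1G050340 and the annexin HORVU7Hr1G037080 also carry the heat term and stood among the 8. Heat stress transcription factor A-2, HORVU5Hr1G094380, which activates such chaperone genes, stood at 11.5, 16.5 and 11.6 CPM in the control libraries of BCS8 and 23.8, 15.5 and 20.3 under drought, and 10.1, 9.45 and 8.7 and 19.6, 19.2 and 19.6 in BCS24. The drought libraries of BCS24 lay clearly above its controls, whereas BCS8 drought 2 lay below BCS8 control 2. The gene rose by 0.82 ± 0.13 (edgeR adjusted p = 0.00684). By orthology 2 of 12 small heat shock protein genes (16.7%) and 2 of 19 HSP70 genes (10.5%) rose and none fell. Both counts were 1 without BCS8 drought 3 and BCS24 control 1. Without all 3 libraries they were 1 and 0. With 1 library left out the count of small heat shock genes was 1 without BCS8 control 1 or BCS24 control 2, and that of HSP70 genes 1 without BCS8 control 1, BCS8 drought 1, BCS24 control 1, BCS24 control 2, BCS24 control 3 or BCS24 drought 1. The wider protein folding list gave 11 rises and 3 falls among 217 genes (5.07% and 1.38%), 7 and 11 in the limma model, 8 and 6 without BCS8 drought 3 and BCS24 control 1 and 2 to 10 rises and 1 to 6 falls with 1 library left out, the fewest rises without BCS24 control 3. Salt-response terms gave 17 rises and 11 falls among 310 genes (5.48% and 3.55%, near the 4.0% and 2.87% of all genes; median 0.06), and 13 and 15 in the limma model. The numbers were 8 and 12 without BCS8 drought 3 and BCS24 control 1 and 17 and 10 without all 3 libraries, rises numbered 7 without BCS8 control 1 or BCS24 control 3, 8 without BCS24 control 2 and 11 without BCS8 control 3 or BCS24 drought 1, and falls 5 without BCS8 control 1, 6 without BCS8 drought 2, BCS24 control 2 or BCS24 control 3 and 7 without BCS8 control 3 or BCS24 drought 1.

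Jasmonate genes moved in both directions. JAZ proteins repress jasmonate responses and their genes are themselves induced by the hormone. Of 7 tested JAZ genes by orthology 5 rose (71.4%, against 4.0% of all genes), none fell and all had a positive value (median 1.14). None of the 5 passed without BCS8 drought 3 and BCS24 control 1, nor without all 3 libraries, and the count was 1 without BCS8 control 1 or BCS24 control 3, 2 without BCS24 control 1 or BCS24 control 2 and 3 without BCS8 control 2, BCS8 drought 1, BCS8 drought 3 or BCS24 drought 1. HORVU5Hr1G062290 stood at 10.7, 33.3 and 40.3 CPM in the control libraries of BCS8 and 153, 159 and 373 under drought, and 4.83, 6.4 and 4.82 and 7.72, 81.1 and 9.52 in BCS24, so that the rise in BCS24 rested mainly on drought 2, which stood far above the others. Its mean change was 2.82 ± 0.62 (edgeR adjusted p = 0.025), not past the threshold without BCS8 control 1, BCS24 control 1, BCS24 control 2 or BCS24 control 3 (highest adjusted p 0.0735). Among 23 genes of jasmonate synthesis 3 rose and 1 fell (13.0% and 4.35%, against 4.0% and 2.87% of all genes). The rises numbered 5 without BCS8 control 2, and 2 without BCS8 drought 3 and BCS24 control 1. Without all 3 libraries 4 rose and 2 fell. The lipoxygenase HORVU2Hr1G078510, of the LOX2S orthology that opens the pathway, stood at 18.2, 18.0 and 25.8 CPM in the control libraries of BCS8 and 37.4, 43.1 and 60.2 under drought, and 14.1, 15.1 and 13.2 and 26.1, 34.4 and 21.1 in BCS24. It rose by 1.06 ± 0.16 (edgeR adjusted p = 0.00607).

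The 12-oxophytodienoate reductase HORVU2Hr1G004230 (chromosome 2H, 9658399 to 9661173, reverse strand), of an enzyme family that acts downstream of lipoxygenase and allene oxide synthase, stood at 25.3, 12.7 and 55.3 CPM in the control libraries of BCS8 and 3.21, 5.54 and 3.33 under drought, and 55.9, 58.6 and 69.6 and 3.58, 10.3 and 2.35 in BCS24. All drought libraries lay far below the controls of their accession, and the gene fell by 3.22 ± 0.44 on the log2 scale (edgeR adjusted p = 0.00463), similar in both accessions and past the threshold in each of the 25 alternatives. Jasmonate signalling terms covered 59 genes, with 9 rises and 1 fall (15.3% and 1.69%, against 4.0% and 2.87% of all genes). Their median was 0.03. Rises numbered 5 without BCS8 drought 3 and BCS24 control 1, and 5 without BCS8 control 1 or BCS24 control 1. Without all 3 libraries 5 rose and 2 fell. Falls numbered 2 without BCS8 control 2, and 3 in the limma model. The largest rise was that of HORVU1Hr1G087630, a gene with jasmonate, salicylate and disulfide oxidoreductase terms, which stood at 0.849, 0.411 and 0.673 CPM in the control libraries of BCS8 and 22.6, 3.6 and 15.8 under drought, and 0.184, 0.108 and 0.198 and 0.884, 1.27 and 1.47 in BCS24 (3.66 ± 0.44, edgeR adjusted p = 0.00272). The fall was that of HORVU4Hr1G000700 (−2.69 ± 0.42), of the ERF1 orthology, a transcription factor of ethylene and jasmonate responses.

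Ethylene signalling terms gave 8 rises and 5 falls among 81 genes (9.88% and 6.17%, against 4.0% and 2.87% of all genes; median −0.01), and 6 and 3 without all 3 libraries that lay apart. HORVU4Hr1G071890, a DNA-binding transcription factor gene in this list (chromosome 4H, 582408706 to 582409883, reverse strand), stood at 0.81, 0.649 and 0.319 CPM in the control libraries of BCS8 and 38.6, 5.15 and 8.57 under drought, and 0.518, 0.433 and 0.731 and 2.52, 2.39 and 4.65 in BCS24. The gene rose by 3.69 ± 0.52 (edgeR adjusted p = 0.00477). Falls included HORVU7Hr1G050560 (−0.72 ± 0.13) and HORVU7Hr1G050590 (−0.85 ± 0.21), which carry the orthology number of EIN3, the central transcription factor of the ethylene response, and follow each other closely enough to share reads. The falls numbered 3 without BCS8 control 1, BCS8 control 3, BCS24 control 1, BCS24 control 2, BCS24 control 3, BCS24 drought 1 or BCS24 drought 3. None of 21 ethylene synthesis genes rose and 2 fell (9.52%, against 2.87% of all genes). They were the ACC oxidase gene HORVU6Hr1G079640 (−1.23 ± 0.23), of the last step of synthesis, and HORVU5Hr1G065170 (−0.29 ± 0.07). The second of these calls was lost without BCS8 control 1, BCS8 control 2, BCS8 control 3, BCS8 drought 1, BCS24 control 1, BCS24 control 2, BCS24 control 3, BCS24 drought 2 or BCS24 drought 3 (highest adjusted p 0.0896). Auxin signalling terms gave 2 rises and 4 falls among 109 genes (1.83% and 3.67%), and in the limma model 8 fell. The rises were auxin response factor genes, transcription factors of the auxin pathway. HORVU7Hr1G033820 stood at 15.1, 15.2 and 11.8 CPM in the control libraries of BCS8 and 42.2, 35.3 and 45.9 under drought, and 17.0, 21.1 and 19.4 and 32.1, 29.3 and 42.0 in BCS24, without overlap (1.20 ± 0.12, edgeR adjusted p = 0.00141). Without BCS24 drought 3 the auxin list held 4 rises and 7 falls, without BCS8 control 1 or BCS24 control 3 it held 1 rise, and without BCS24 control 2, BCS24 control 3 or BCS24 drought 1 it held 2 falls.

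Of the compatible solutes of drought-stressed plants, proline was represented by a rise of delta-1-pyrroline-5-carboxylate synthase (P5CS), the enzyme that starts proline synthesis from glutamate. HORVU3Hr1G085760 (chromosome 3H, 614154624 to 614163473, forward strand) stood at 18.3, 20.3 and 14.8 CPM in the control libraries of BCS8 and 108, 42.8 and 54.5 under drought, and 18.5, 21.9 and 17.7 and 50.8, 74.6 and 34.1 in BCS24. BCS8 drought 1 was the highest library, and the gene rose by 1.70 ± 0.25 (edgeR adjusted p = 0.00564). It was among the 12 largest described rises, whose rule required no overlap of the groups in either accession. It was the only one of 10 tested proline and betaine genes to pass, and without BCS24 drought 3 the number was 3. Trehalose genes gave 1 rise and 1 fall among 18 (5.56% each, near the 4.0% and 2.87% of all genes). Their median was −0.30 and 3 were positive, against 51.2% of all genes. The trehalose 6-phosphate synthase HORVU3Hr1G071570, which makes the sugar phosphate, stood at 183, 131 and 163 CPM in the control libraries of BCS8 and 110.2, 84.4 and 103 under drought, and 256, 264 and 248 and 149.7, 129.8 and 152 in BCS24. It fell by 0.76 ± 0.10 on the log2 scale (edgeR adjusted p = 0.00369) with no overlap. The trehalose 6-phosphate phosphatase HORVU1Hr1G053770, which removes the phosphate, rose by 1.08 ± 0.22, a call lost without BCS8 control 1, BCS24 control 2 or BCS24 control 3 (highest adjusted p 0.0536). Without BCS8 drought 3 the list held 2 falls, as it did in the limma model and without all 3 libraries.

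Of 23 tested genes of starch breakdown 7 rose (30.4%, against 4.0% of all genes), none fell and the median was 0.28. In the limma model 5 rose and 1 fell, and by DESeq2 10 rose and 2 fell. Of the 7, 5 were annotated as alpha-1,4 glucan phosphorylase, which releases glucose 1-phosphate from starch. In HORVU3Hr1G085420 the change lay almost wholly in BCS24, although the difference between the accessions did not pass its test. The glucan phosphorylase HORVU3Hr1G085380, with a negative value in BCS8 and a positive one in BCS24, is given below. HORVU3Hr1G085420 stood at 197, 283 and 171 CPM in the control libraries of BCS8 and 190.1, 214 and 279 under drought, and 113, 73.7 and 65.3 and 244, 247 and 260.0 in BCS24, with overlap in BCS8 and none in BCS24 (0.07 ± 0.24 in BCS8 and 1.58 ± 0.24 in BCS24, adjusted p of the difference 0.2, edgeR). HORVU5Hr1G096390 had the smallest p of the list (0.51 ± 0.09, edgeR adjusted p = 0.00895) and kept its call in each of the 12 fits that left out 1 library. The count of the list was 5 without BCS8 drought 3 and BCS24 control 1, and 1 without BCS24 control 2 or BCS24 control 3, 2 without BCS8 control 1 or BCS24 drought 1 and 3 without BCS8 control 3. Starch synthesis gave 1 rise and 1 fall among 24 genes (4.17% each).

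The methionine cycle, which makes S-adenosylmethionine (SAM), the cell's methyl donor, and recycles the homocysteine left after methylation, showed 6 rises and no fall among 15 tested genes (median 0.28), where 4.0% of all genes rose. The limma model and DESeq2 each gave 6 rises and 1 fall. The rises numbered 6 without BCS8 drought 3 and BCS24 control 1 and 5 without BCS8 control 2 as well. HORVU2Hr1G110120, described as adenosylhomocysteinase, the recycling enzyme (chromosome 2H, 718960873 to 718963443, forward strand), stood at 817, 1182 and 926 CPM in the control libraries of BCS8 and 1323, 1483 and 1385 under drought, and 469.5, 419.8 and 445 and 1495, 1976 and 943 in BCS24. BCS8 controls lay close below the drought libraries and BCS24 controls far below, giving a rise of 1.12 ± 0.17 (edgeR adjusted p = 0.00589). The SAM synthase HORVU6Hr1G063490 stood at 887, 1348 and 663 CPM in the control libraries of BCS8 and 1219.7, 1378 and 1596 under drought, and 524, 411 and 562 and 1466, 1562 and 1524 in BCS24, with BCS8 control 2 inside the range of the drought libraries of BCS8 (1.07 ± 0.17, edgeR adjusted p = 0.00684). The other risers were the SAM synthases HORVU6Hr1G063540 (0.79 ± 0.13), HORVU6Hr1G063570 (0.48 ± 0.10) and HORVU6Hr1G063560 (0.48 ± 0.10), the last 2 close enough to share reads, and the adenosylhomocysteinase HORVU2Hr1G109370 (0.83 ± 0.15). The neighbouring serine hydroxymethyltransferase HORVU2Hr1G110110, an enzyme of folate and serine metabolism, rose by 1.20 ± 0.16 and was named through the circadian list.

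Lipid and phenylpropanoid lists held more rises than falls. Fatty acid synthesis gave 10 and 1 among 72 genes (13.9% and 1.39%, against 4.0% and 2.87% of all genes; median 0.12), 6 and 1 without BCS8 drought 3 and BCS24 control 1 and also without all 3 libraries, and 6 rises without BCS8 control 1 or any of the 3 controls of BCS24. Without BCS8 drought 1 it held 2 falls. The risers included enzymes named for the step, such as the acyl carrier protein hydrolases HORVU5Hr1G076030 (0.40 ± 0.07) and HORVU7Hr1G019830 (0.54 ± 0.11), and also pyruvate kinase HORVU1Hr1G054380 (0.86 ± 0.17) and malic enzyme HORVU3Hr1G019790 (0.67 ± 0.12), which supply precursors. The fall was that of HORVU2Hr1G069060 (−1.26 ± 0.14), a gene with protein kinase regulator and nitrate terms.

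Sterol synthesis gave 5 rises and 1 fall among 19 genes (26.3% and 5.26%, against 4.0% and 2.87% of all genes). Rises numbered 2 without BCS8 control 1, BCS24 control 2, BCS24 control 3 or BCS24 drought 2. They numbered 3 without BCS8 control 3, BCS8 drought 3 or BCS24 drought 1, and 3 without BCS8 drought 3 and BCS24 control 1. Without all 3 libraries they numbered 5, and in the limma model 2. The pair of genes of the sterol C-4 methyl oxidase orthology HORVU4Hr1G018150 and HORVU4Hr1G018180, which share reads or follow each other closely, rose by 2.30 ± 0.29 and 2.32 ± 0.28. HORVU4Hr1G018150 stood at 449, 817 and 209 CPM in the control libraries of BCS8 and 892, 687 and 1127 under drought, and 84.9, 61.7 and 79.8 and 1191, 785 and 1016 in BCS24, so the groups overlapped in BCS8 and lay far apart in BCS24 (edgeR adjusted p of the difference 0.196). Lignin and phenylpropanoid genes gave 9 rises and 1 fall among 89 (10.1% and 1.12%; median 0.12), 6 and 0 without BCS8 drought 3 and BCS24 control 1, 8 and 0 without all 3 libraries, with rises at 4 without BCS8 control 1 and 5 without BCS24 control 2, BCS24 control 3 or BCS24 drought 1. The fall was that of a peroxidase gene, HORVU2Hr1G018570 (−2.76 ± 0.61). In the limma model 3 of the lignin list fell.

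Photosynthetic genes had positive values with few calls. Of 31 tested light-harvesting genes 4 rose (12.9%, against 4.0% of all genes), none fell and 30 had a positive value. Their median was 0.75, while over all genes 51.2% were positive and the median was 0.01. In the limma model 27 of the 31 were positive and the median was 0.46. The genes share their depth and their cells, so these values are not independent. HORVU2Hr1G036960, of the LHCA orthology, stood at 966, 765 and 1274 CPM in the control libraries of BCS8 and 2012, 1368 and 2259 under drought, and 4752, 3632 and 4501 and 5634, 5568 and 8142 in BCS24. It rose by 0.75 ± 0.18 (edgeR adjusted p = 0.0352). HORVU5Hr1G087250 of the LHCB orthology stood at 1432, 1139 and 1502 CPM in the control libraries of BCS8 and 2554, 1510.5 and 1954 under drought, and 1129, 792 and 954 and 1767, 1707 and 2633 in BCS24, without overlap, and HORVU5Hr1G124160 had near-equal values (0.83 ± 0.17 and 0.82 ± 0.17). The count of 4 was 2 without BCS8 drought 3 and BCS24 control 1, 0 without all 3 libraries, and 0 without BCS8 control 1 or BCS24 control 2, 1 without BCS24 control 3 and 2 without BCS8 control 2, BCS8 drought 1, BCS8 drought 3, BCS24 control 1, BCS24 drought 1 or BCS24 drought 3. DESeq2 called 11. The 8 tested Rubisco genes were all positive (median 0.45), as were 17 of 21 photosystem II genes (0.25). So were 8 of 9 photosystem I genes (0.36) and 7 of 8 Calvin cycle genes (0.25). In the limma model 8 Rubisco (median 0.36), 15 photosystem II (0.13), 6 photosystem I (0.16) and 7 Calvin cycle genes (0.16) were positive. None of the Rubisco, photosystem and Calvin cycle genes passed in either direction by edgeR. DESeq2 called 3 Rubisco, 2 photosystem II and 1 photosystem I genes higher, and without BCS8 control 3 the Rubisco list held 2 rises and without BCS8 drought 2 the photosystem I list held 1. Of 26 chlorophyll synthesis genes 2 rose (7.69%), with 1 without BCS24 control 2 or BCS24 control 3 and 4 without BCS8 control 3. The number was 1 without BCS8 drought 3 and BCS24 control 1 and 0 without all 3 libraries. Of 33 photorespiration genes none passed, although 1 fell without BCS8 drought 3 or BCS24 drought 1, and also in the limma model.

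Cytosolic ribosomal protein genes shifted little. The 135 genes of the large subunit had a median of 0.15, 121 of them positive. The 84 genes of the small subunit had a median of 0.11, 67 of them positive. Over all genes tested the median was 0.01 and 51.2% were positive. As with the light-harvesting genes, these values are not independent. The share that rose was 0.741% in the large subunit and 0.0% in the small, against 4.0% of all genes. In the limma model the numbers of positive genes were 95 and 50, and 1 and 2 genes fell. HORVU1Hr1G068940 alone passed by edgeR (1.08 ± 0.28, edgeR adjusted p = 0.0434), a call lost without BCS8 control 1, BCS8 control 2, BCS8 control 3, BCS8 drought 1, BCS8 drought 2, BCS24 control 1, BCS24 control 2, BCS24 control 3 or BCS24 drought 2 (highest adjusted p 0.114).

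**Figure D3:**
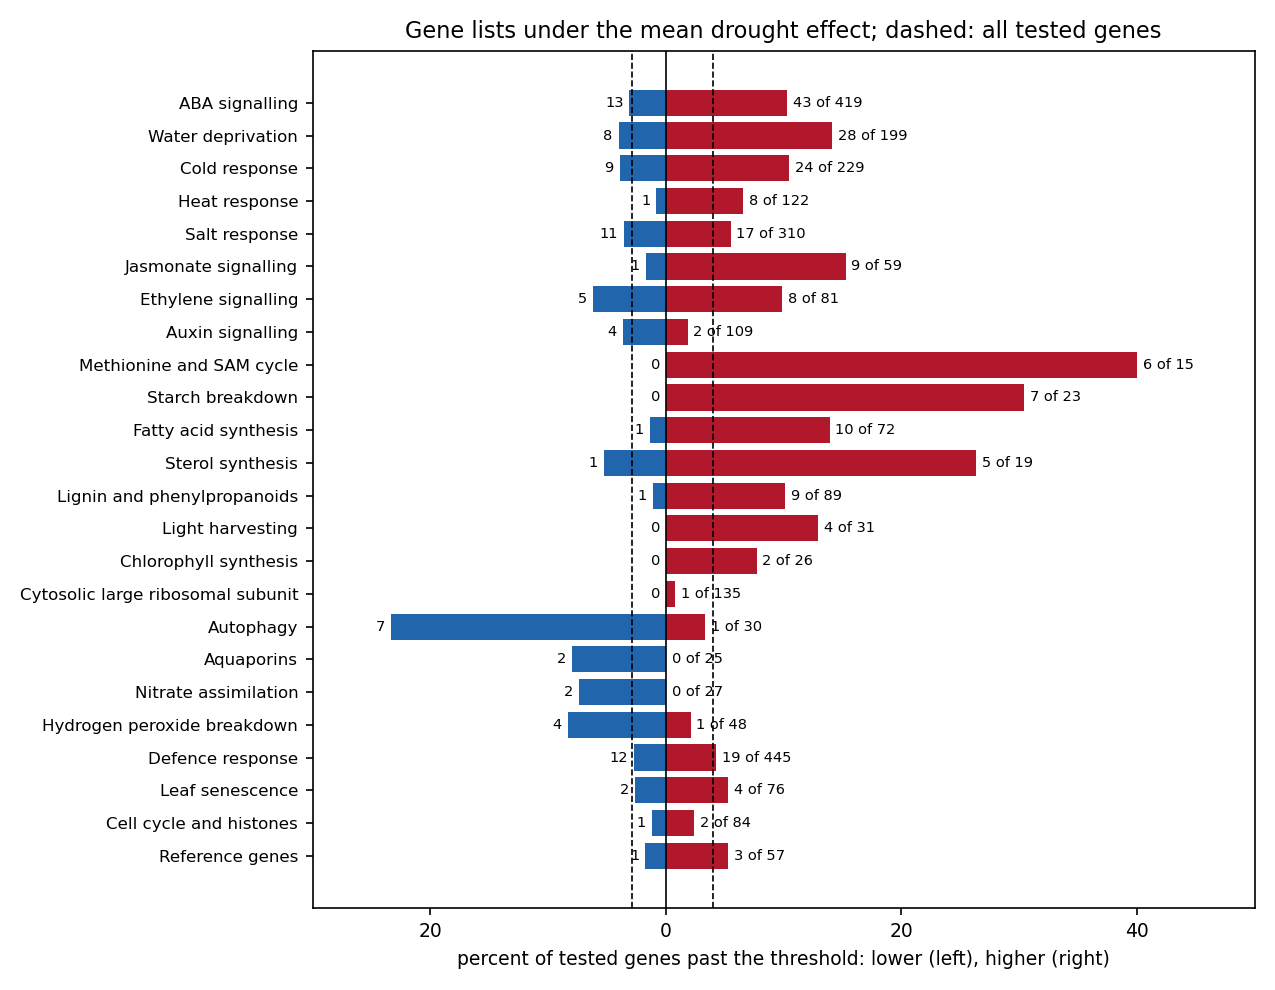
Share of the tested genes in 24 lists (percent, horizontal axis) that rose (red bars, right) and fell (blue bars, left) by the edgeR test, with counts beside the bars and the shares among all tested genes as dashed lines. The methionine cycle reaches furthest to the right with 6 of 15 genes and autophagy furthest to the left with 7 of 30.

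Autophagy delivers cell contents to the vacuole for recycling. Of 30 tested genes 7 fell (23.3%, against 2.87% of all genes), 1 rose and the median was −0.08. The smallest p belonged to the kinase gene ATG1a, HORVU4Hr1G084840, which starts the process and stood at 132, 121 and 118 CPM in the control libraries of BCS8 and 77.2, 52.2 and 71.8 under drought, and 128, 124 and 124 and 110.0, 89.9 and 101 in BCS24. It lay lower under drought in every library and fell by 0.60 ± 0.10 (edgeR adjusted p = 0.00773), further in BCS8 (−0.88) than in BCS24 (−0.32; adjusted p of that difference 0.267). The other falls were small, from −0.22 ± 0.05 for ATG18a, HORVU3Hr1G098020, to −0.49 ± 0.12 for HORVU7Hr1G042410, and included ATG3, ATG5 and ATG11. The number of falls was 2 without BCS8 drought 3 and BCS24 control 1, 3 without all 3 libraries, and 1 without BCS8 control 1, BCS24 control 2 or BCS24 control 3, 2 without BCS24 drought 2, 3 without BCS8 control 3, BCS8 drought 2, BCS8 drought 3, BCS24 drought 1 or BCS24 drought 3 and 4 without BCS24 control 1. Under upper-quartile scaling and in the limma model 9 fell.

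Aquaporin genes, which encode water channels, gave 2 falls and no rise among 25 (8.0%, against 2.87% of all genes, median −0.16). HORVU6Hr1G092970 (chromosome 6H, 578621022 to 578622182, reverse strand) stood at 356, 378 and 298 CPM in the control libraries of BCS8 and 274, 181 and 289 under drought, and 315, 424 and 367 and 217, 147 and 231 in BCS24. The level changed by −0.68 ± 0.15 (edgeR adjusted p = 0.0268). HORVU6Hr1G092960 (−0.71 ± 0.19) spans it on the other strand, and whether the counting used strand is not given, so reads of the pair cannot be told apart. The calls were lost without BCS8 control 1, BCS8 control 2, BCS24 control 2, BCS24 control 3 or BCS24 drought 1 for HORVU6Hr1G092970 (highest adjusted p 0.0738), and HORVU6Hr1G092960 kept its call without BCS8 drought 1 alone of the 12 libraries (highest adjusted p 0.12). Without BCS8 control 2 another aquaporin rose, and without all 3 libraries 1 rose and none fell. Nitrate assimilation gave 2 falls among 27 genes (7.41%, against 2.87% of all genes; median −0.13), and 7 had a positive value. The number of falls was 1 without BCS8 control 1, BCS8 control 2, BCS8 control 3, BCS8 drought 2, BCS24 control 2, BCS24 control 3, BCS24 drought 2 or BCS24 drought 3, while 4 fell in the limma model and 5 by DESeq2. Peroxide breakdown gave 4 falls and 1 rise among 48 genes (8.33% and 2.08%, against 2.87% and 4.0% of all genes). The counts were 1 and 0 without BCS8 drought 3 and BCS24 control 1, and also without all 3 libraries. With 1 library left out the falls numbered 0 without BCS24 control 2 or BCS24 control 3, 1 without BCS8 control 1, BCS8 control 3 or BCS24 drought 1 and 2 without BCS8 drought 1, BCS24 control 1 or BCS24 drought 3. The catalase HORVU6Hr1G008640, which splits hydrogen peroxide in peroxisomes, stood at 2405, 1761 and 2507 CPM in the control libraries of BCS8 and 1353, 2458 and 786.2 under drought, and 3012, 2661 and 3567 and 999.6, 1375 and 670.0 in BCS24. BCS8 drought 2 lay among the controls and BCS24 showed no overlap. The change of −1.07 ± 0.27 (edgeR adjusted p = 0.0414) was lost without BCS8 control 1, BCS8 control 3, BCS8 drought 1, BCS24 control 1, BCS24 control 2, BCS24 control 3, BCS24 drought 1 or BCS24 drought 3 (highest adjusted p 0.105).

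The genes that follow belong to no list counted here and were named for their level or after their values were seen. The cysteine protease RD21B, HORVU2Hr1G113460, stood at 1989, 1428 and 1890.4 CPM in the control libraries of BCS8 and 1141, 750.3 and 934 under drought, and 1726, 2130.3 and 1586 and 1116, 926 and 960.0 in BCS24. It had no overlap, fell by 0.88 ± 0.14 (edgeR adjusted p = 0.00684) and kept its call in each of the 25 alternatives. The thiol protease aleurain, HORVU5Hr1G061770, which stood at 1181 FPKM in control, changed by −0.52 ± 0.11 (edgeR adjusted p = 0.0235), a call lost without BCS8 control 1, BCS8 control 3, BCS24 control 1, BCS24 control 2 or BCS24 drought 2 (highest adjusted p 0.0716). Carboxypeptidase HORVU4Hr1G016730 fell by 1.15 ± 0.17. HORVU4Hr1G074400, which carries chloroplast organization and glucosinolate terms, was the most abundant gene that fell, from 1246 to 744 FPKM (−0.67 ± 0.15, edgeR adjusted p = 0.0287). Its call was lost without BCS8 control 1, BCS8 control 2, BCS8 control 3, BCS8 drought 1, BCS24 control 1, BCS24 control 3, BCS24 drought 1 or BCS24 drought 2 (highest adjusted p 0.08).

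By size, the described genes with the largest rises at 5 FPKM or more under drought and no overlap in either accession began with a RING-type E3 ubiquitin transferase, an enzyme class that marks proteins for degradation. HORVU5Hr1G059280 (chromosome 5H, 463207931 to 463210666, forward strand) stood at 2.24, 0.586 and 0.124 CPM in the control libraries of BCS8 and 88.2, 12.1 and 14.6 under drought, and 0, 0.0541 and 0.0791 and 5.83, 3.44 and 4.27 in BCS24. The rise of 5.97 ± 0.86 (edgeR adjusted p = 0.0051) rests in BCS24 on controls with 7 counts in all. Next came the transcription factor bHLH27, HORVU2Hr1G066100, which stood at 0.752, 2.1 and 1.74 CPM in the control libraries of BCS8 and 37.7, 28.6 and 236 under drought, and 0.134, 0.451 and 0.0791 and 0.621, 27.9 and 0.47 in BCS24. A drought library in each accession stood far above the others (BCS8 drought 3 and BCS24 drought 2), and the call (5.73 ± 1.17, edgeR adjusted p = 0.019) was lost without BCS8 control 1, BCS24 control 2 or BCS24 control 3 (highest adjusted p 0.0647). Glycosyltransferase HORVU1Hr1G007810 stood at 4.82, 8.56 and 5.62 CPM in the control libraries of BCS8 and 34.8, 27.1 and 58.3 under drought, and 12.7, 11.2 and 14.3 and 49.1, 29.9 and 63.2 in BCS24. It rose by 2.28 ± 0.25 (edgeR adjusted p = 0.00189). The gene of a pre-mRNA cleavage factor subunit, HORVU7Hr1G078670, rose by 2.11 ± 0.39. In the order of size JAZ HORVU5Hr1G062290, HOX22-like HORVU2Hr1G092710 and P5CS HORVU3Hr1G085760, all described above, stood among these 12.

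The last of them were a DOMON-domain cytochrome b561 (1.52 ± 0.22, HORVU7Hr1G052750), threonine dehydratase HORVU4Hr1G007890 (1.47 ± 0.27), UDP-glucose 6-dehydrogenase HORVU5Hr1G096370 (1.44 ± 0.32), annexin HORVU7Hr1G037080 and the hexosyltransferase HORVU6Hr1G076820 (1.36 ± 0.20). The dehydrogenase lost its call without BCS8 control 1, BCS24 control 1, BCS24 control 2 or BCS24 control 3 (highest adjusted p 0.0741). The 12 largest falls under the same rule were smaller, from −1.55 to −0.67. The AT-hook nuclear protein gene HORVU4Hr1G060280 stood at 8.35, 8.36 and 9.11 CPM in the control libraries of BCS8 and 3.25, 2.61 and 5.58 under drought, and 14.7, 18.1 and 19.7 and 3.84, 4.61 and 5.36 in BCS24, and Cyclin-U1-1, HORVU2Hr1G107830, at 21.1, 17.5 and 20.6 CPM in the control libraries of BCS8 and 8.59, 7.31 and 7.99 under drought, and 21.4, 42.8 and 34.8 and 10.4, 11.6 and 12.8 in BCS24. That neither overlapped in either accession was required by the rule. They changed by −1.55 ± 0.19 and −1.41 ± 0.15 (edgeR adjusted p = 0.00276 and 0.00189). Glycosyltransferase HORVU7Hr1G097550 (−1.05 ± 0.17), glucose-6-phosphate 1-epimerase HORVU2Hr1G101360 (−0.99 ± 0.14) and the histidine kinase-like gene HORVU3Hr1G094870 (−0.67 ± 0.10) also fell in each of the 25 alternatives.

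**Figure D4:**
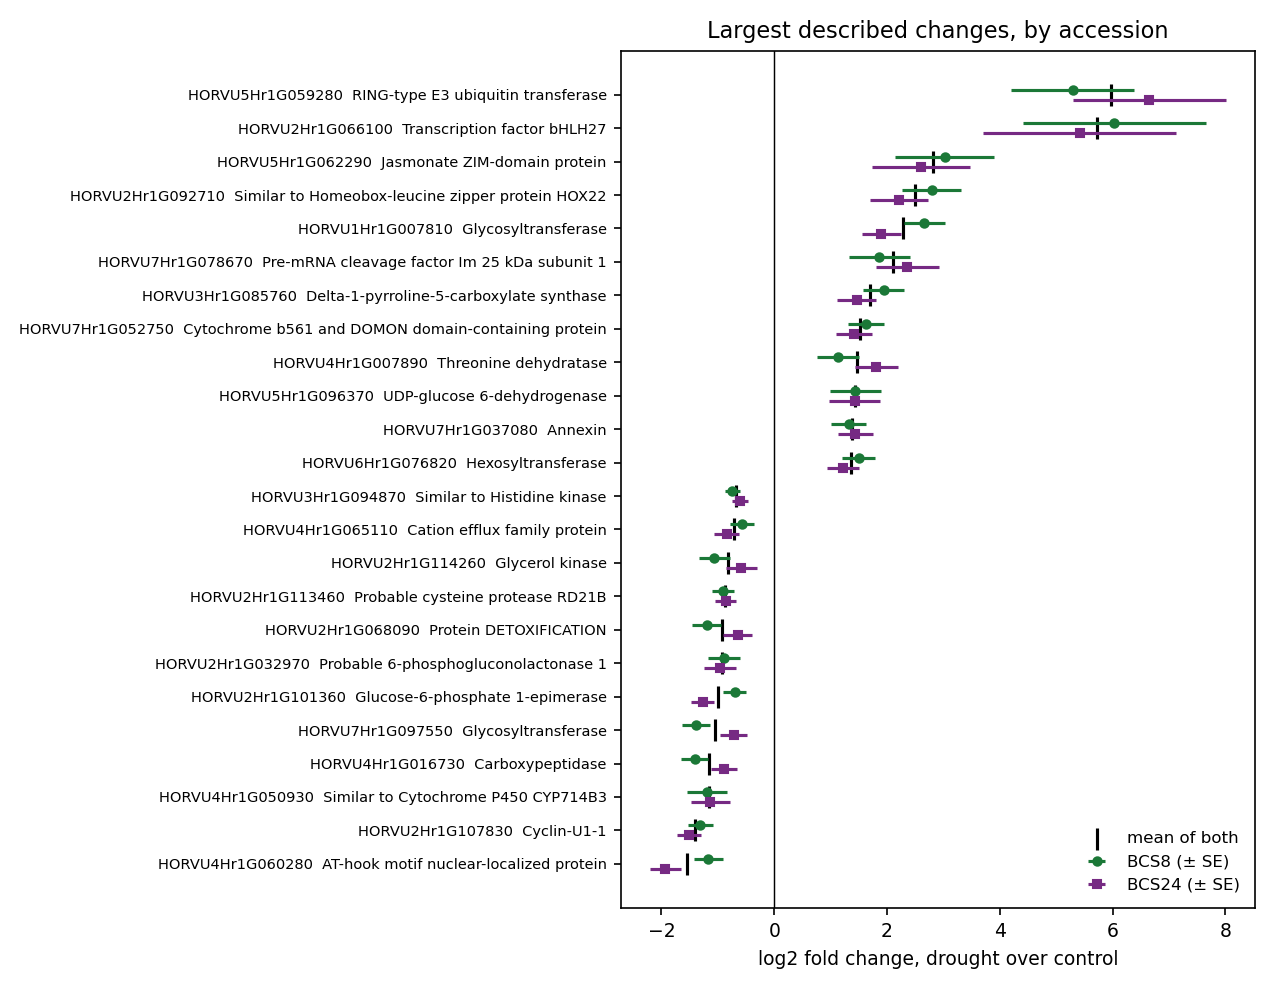
Log2 fold change under drought ± SE of the 12 largest described rises and 12 largest described falls, drawn separately for BCS8 and BCS24. All 24 genes lie on the same side of 0 in both accessions, which the rule that chose them required.

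The mean over accessions can hide unequal effects. No gene passed the test of the difference between the drought effects of BCS24 and BCS8 (0 of 17342, 0.00%, edgeR), while 2166 genes (12.5%) had an unadjusted p under 0.05, DESeq2 called 629, and limma called 14 on log2(FPKM + 1) and 1 with a pseudocount of 0.1. Without BCS8 drought 3 edgeR called 31 genes, without BCS8 control 3 it called 4, without BCS8 drought 1 or BCS8 drought 2 it called 1, and without BCS8 drought 3 and BCS24 control 1 together it called 728. Without all 3 libraries that lay apart it called 551. The smallest adjusted p, 0.0604, belonged to HORVU7Hr1G037180, a transcription factor gene with cytokinin, cold and water terms, which stood at 15.6, 16.8 and 22.8 CPM in the control libraries of BCS8 and 82.3, 60.4 and 65.5 under drought, and 36.2, 42.6 and 48.2 and 26.3, 30.0 and 36.3 in BCS24. It lay higher under drought in BCS8 (1.91) and slightly lower in BCS24 (−0.46), so its called mean rise (0.73 ± 0.13) describes neither accession. The sterol pair on 4H and the glucan phosphorylase HORVU3Hr1G085380 (−0.30 ± 0.20 in BCS8 and 1.59 ± 0.21 in BCS24) were likewise unequal by their values, with adjusted p of the difference of 0.196, 0.178 and 0.107. With 3 libraries in each group, a p that misses the threshold does not show equal effects.

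The 6 genes with the smallest p were mostly without a description. HORVU5Hr1G078950 (chromosome 5H, 556103885 to 556108189, reverse strand), annotated as a structural constituent of the ribosome, stood at 19.4, 20.8 and 24.4 CPM in the control libraries of BCS8 and 81.7, 73.4 and 75.4 under drought, and 11.8, 15.1 and 15.9 and 51.8, 60.8 and 37.6 in BCS24. Its drought libraries lay far above the controls with little spread in either accession, and it rose by 1.82 ± 0.13 (edgeR adjusted p = 0.000596). HORVU6Hr1G055230, with a nuclear term only, stood at 9.2, 7.47 and 9.46 CPM in the control libraries of BCS8 and 3.54, 3.26 and 3.53 under drought, and 7.81, 12.8 and 11.7 and 2.63, 2.49 and 2.66 in BCS24. It changed by −1.70 ± 0.14 (edgeR adjusted p = 0.00136). HORVU3Hr1G013900 and HORVU3Hr1G013890, neighbours on chromosome 3H with secondary metabolism and oxygenase terms in the former, changed by −1.76 ± 0.15 and −1.76 ± 0.16 with values close enough to share reads. The phospholipase A2 gene HORVU4Hr1G006850, of a class of enzymes that release fatty acids from membrane lipids, stood at 0.829, 1.68 and 1.88 CPM in the control libraries of BCS8 and 0.249, 0.197 and 0.324 under drought, and 4.52, 11.7 and 11.9 and 0.376, 0.154 and 0.235 in BCS24. The change was −3.84 ± 0.36 (edgeR adjusted p = 0.00141), among the largest falls of all. The serine/threonine protein kinase HORVU5Hr1G065370 rose by 1.68 ± 0.16 (edgeR adjusted p = 0.00141). All 6 passed in each of the 25 alternatives.

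Changed genes were spread over the genome. On chromosomes 1H to 7H the share that rose ran from 3.77% (3H) to 4.45% (1H) and the share that fell from 2.44% (6H) to 3.81% (4H), while no gene among the 29 of the plastid or the 8 of the mitochondrial genome passed. Protein-coding genes gave 655 rises and 474 falls among 15977, and genes typed as nontranslating coding sequence 31 and 20 among 819. None of 235 rRNA genes and 1 of 96 snoRNA genes passed. Split into 4 bins of near-equal size by mean FPKM over all libraries, the share that rose was 3.76% in the lowest bin and 4.40% in the highest, whereas the share that fell went from 1.45% to 4.08%.

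Further lists cover other tissue states and reference genes. Leaf senescence gave 4 rises and 2 falls among 76 genes (5.26% and 2.63%, median 0.00). DNA replication, cyclins and histones gave 2 and 1 among 84 (2.38% and 1.19%, median 0.01). Microtubule motors gave 0 and 1 among 47 (0.0% and 2.13%, median 0.02). Pathogen defence gave 19 and 12 among 445 (4.27% and 2.70%, median −0.01), close to the 4.0% and 2.87% of all genes. Senescence rises numbered 2 without BCS8 control 1, BCS8 control 3, BCS24 control 2 or BCS24 drought 1, and 2 without all 3 libraries. In the replication list rises numbered 0 without BCS8 control 1, BCS8 control 2, BCS8 control 3, BCS8 drought 2, BCS8 drought 3, BCS24 control 1, BCS24 control 2, BCS24 control 3 or BCS24 drought 2 and 1 without BCS24 drought 1 or BCS24 drought 3, falls 2 without BCS8 control 2, BCS8 drought 2 or BCS24 drought 3 and 3 without BCS8 drought 3, and the limma model gave 0 rises and 6 falls. Without BCS8 control 1 or BCS24 control 3 the defence list held 9 rises, and in the limma model 18 rose and 27 fell. Without BCS8 drought 3 and BCS24 control 1 its counts were 12 and 10, and 19 and 12 without all 3 libraries. The replication list held 0 rises and 2 falls in both of these settings. Chitin-response genes gave 4 rises and 1 fall among 55 (7.27% and 1.82%). Of 57 genes commonly used as references 3 rose and 1 fell (5.26% and 1.75%), and the median was 0.03. They included the beta tubulins HORVU3Hr1G078940 (0.46 ± 0.11) and HORVU1Hr1G064870 (0.85 ± 0.22). None of these 3 rises passed without BCS8 drought 3 and BCS24 control 1, although without BCS8 control 2 as well the list again held 3, and with 1 library left out the rises numbered 0 without BCS8 control 1, BCS8 control 3, BCS24 control 2, BCS24 control 3, BCS24 drought 1 or BCS24 drought 2, 1 without BCS8 drought 2 or BCS8 drought 3 and 5 without BCS24 drought 3.

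Each library was also placed between control and drought by genes called without it. For a library left out of the test, its position on each gene called among the other 11 (with at least 0.5 on the log2(CPM + 1) scale between the remaining groups of its accession) was set so that 0 was the mean of the remaining controls and 1 that of the remaining drought libraries. Drought libraries had median positions of 0.75, 0.68 and 0.84 in BCS8 and 0.87, 0.94 and 0.68 in BCS24, over 581 to 888 genes each. Controls had −0.06, 0.39 and 0.05 in BCS8 and 0.27, −0.02 and 0.00 in BCS24, over 387 to 840 genes. All drought libraries thus lay nearer to the drought mean and all controls nearer to the control mean, with BCS8 control 2 and BCS24 control 1 the controls furthest towards drought. BCS8 drought 3, which stood apart on component 2, was placed with the other drought libraries here.

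**Figure D5:**
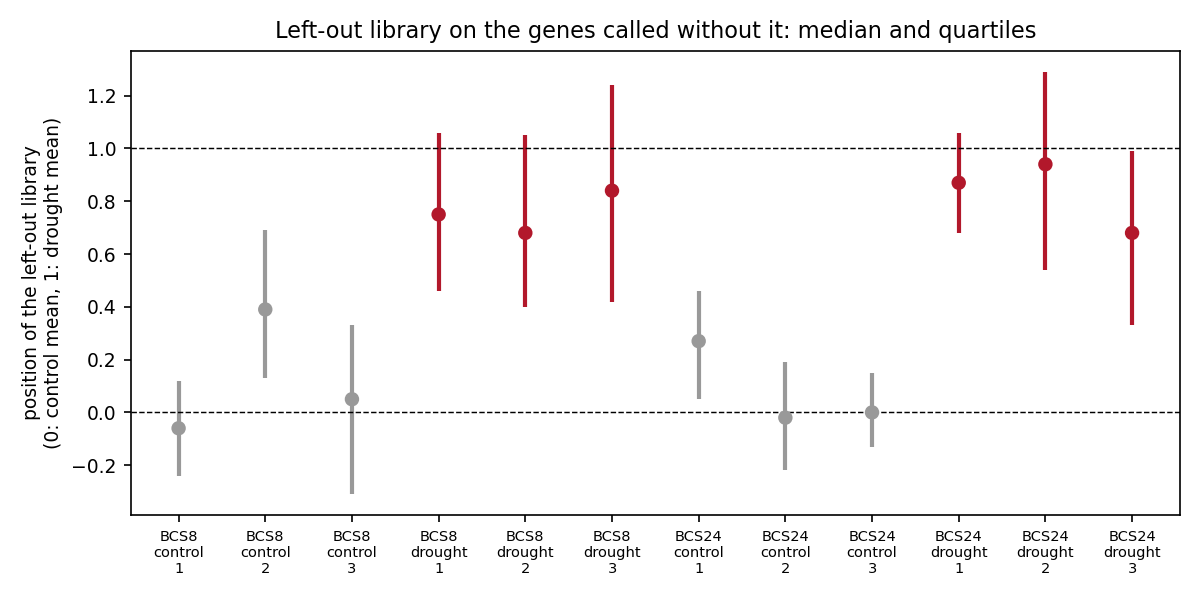
Position of each library between the control mean (0) and the drought mean (1) of its accession, as the median over the genes called without that library, with bars from the lower to the upper quartile over genes. The 6 drought libraries have medians of 0.68 to 0.94 and the 6 controls −0.06 to 0.39.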

How the data were processed

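Leaf RNA of barley was measured in 12 libraries. Per the labels' protocols, total RNA was extracted with Trizol, RNA of good integrity was selected for poly(A), and strand-marked libraries were read in pairs on an Illumina NovaSeq. The authors deposited a gene table whose columns are, per the file headers, the count and the FPKM of every gene in every library. StringTie 2.1.6, DESeq2 and edgeR are named in the submitters' processing notes, with no role given. For the aligner, the genome build and the handling of strand and of reads shared by like genes, nothing is given in the sources used here. All columns of values matched a sample. A table of transcripts was not used here, and a table of sequences for these gene IDs was not at hand.

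The filter of FPKM of at least 1 in at least 3 libraries kept 17342 genes. Counts were scaled by TMM and tested with edgeR 4.0.16 in R 4.3.3 (quasi-likelihood F test, 1 coefficient per group, all 12 libraries in 1 fit, residual degrees of freedom 8, prior 2.47). The contrast was the mean of the drought effects of BCS8 and BCS24, and a further contrast their difference. Adjustment was by Benjamini-Hochberg over the 17342 genes, and an adjusted p under 0.05 was called. CPM are counts scaled to a common TMM-adjusted library size. Standard errors were derived from the log2 fold change and its F statistic. In data simulated with 100 genes changed 2-fold and 100 changed 4-fold among 17342, the mean contrast recovered 61% and 90% of them, with 3.8% of calls false. That simulation drew genes independently, gave each changed gene the same fold in both accessions and held no library that lay apart. Its share of false calls therefore need not hold for these data. Library measures were tested by exact permutation within accessions.

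Alternatives used limma 3.58.1, DESeq2 1.42.0, other scalings and filters, an additive model, a replicate block, rRNA share as a covariate and the omission of each library. Omission of BCS8 drought 3 and BCS24 control 1 together, and of these with BCS8 control 2, was added after the data were seen. Figures were drawn with matplotlib 3.10.9.

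The 65 gene lists rest on ontology terms and on words in the deposited descriptions, and 56 of them had at least 3 tested genes. The effect, the lists and the rule for named genes were chosen with earlier results of these data known, and 10 lists by orthology number or term were added after the values were seen. Of the tested genes 20.2% have a usable description, 15339 have ontology terms and 6312 an orthology number. Named genes are the 12 largest described rises and falls among called genes with at least 5 FPKM in the higher treatment and no overlap within either accession (53 and 40 could be chosen), the 2 members of each list with the smallest p, the 6 smallest p, and the 2 called genes of highest FPKM in each direction. Other genes named, such as further members of a list, were picked after their values were seen. Roles of genes known by orthology are background from other plants.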

Additional observations from a re-analysis of the deposited data

Results flagged for a closer look

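The means of 3 measures of library make-up went one way under drought in BCS8 and the other way in BCS24. They were tested by exact permutation of the treatment labels within accessions (2-sided, 400 arrangements, smallest possible p 0.005). Such shuffling assumes no drought effect in either accession, so a small p for the difference does not by itself show unequal effects. The p-values were not adjusted over the measures. The difference of the effects, BCS24 minus BCS8, in this exact permutation test was −1.74 percentage points for the rRNA share of counts (p = 0.035), 2.42 points for the share held by the 10 most counted genes (p = 0.01) and −808 for the number of genes with at least 1 FPKM (p = 0.005). In the mean over accessions the same exact permutation test gave 0.00462 points, 0.314 points and −64.8 genes (p = 0.985, 0.54 and 0.685). Their part in the gene results was not tested beyond the fit with rRNA share as a covariate, which called 1299 genes.

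HORVU7Hr1G055080, a NAC transcription factor gene, stood at 96.9, 86.4 and 115 CPM in the control libraries of BCS8 and 159, 115 and 138 under drought, and 105, 192 and 165 and 58.6, 92.4 and 62.3 in BCS24. Its log2 change was 0.47 ± 0.24 in BCS8 and −1.12 ± 0.24 in BCS24, a difference of −1.58 that did not pass the test across all genes (edgeR adjusted p = 0.196). All groups held 3 libraries, so no test for single outlying libraries was made.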

How the results depend on the processing

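The count of genes changed in the mean effect was 1191. It was 1187 under DESeq2's size factors in edgeR, 1224 under upper-quartile scaling, 962 without the filter on low values, 954 at 5 FPKM or more, 1508 and 1486 in limma, 987 in an additive model, 1299 with rRNA share as a covariate and 1219 without rRNA genes. DESeq2 called 2334, of which 1189 were among the 1191. Leaving out 1 library gave 514 to 1186, and omission of BCS8 drought 3 and BCS24 control 1 gave 842, or 972 with BCS8 control 2 also left out. Under upper-quartile scaling 592 rose and 632 fell and the median of all genes was −0.03. For the difference between the accessions, 0 genes passed in edgeR, while DESeq2 called 629, a filter of 5 FPKM gave 1, limma 14 and 1, leaving out 1 library 0 to 31, leaving out those 2 libraries 728 and leaving out all 3 551. The cause of these shifts was not tested.

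Among genes named by the rule, 23 lost their call without BCS8 drought 3 and BCS24 control 1, and 25 without BCS8 control 2 as well. The values of HORVU3Hr1G014140 (−0.17) and HORVU6Hr1G062260 (−0.06) changed sign without BCS24 drought 2. Over the omission of each library they ranged from −0.17 to 0.80 and from −0.06 to 0.29.

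The labels number replicates alike across groups but state no pair. As the labels state none, the numbers were not taken as pairs. Deviations of same-numbered libraries correlated at −0.418 to 0.267. Only the drought libraries of both accessions were positive for every number (0.143, 0.267 and 0.185). No values for differently numbered libraries were set beside these, so they cannot show whether pairs exist. A replicate block gave 1028 calls, of which 906 were among the 1191. With this block 8 of the genes named by the rule lost their call and 2 gained one. With 3 libraries per group and shared reads between like genes, small changes of single members of a family are limited in precision.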
